A study of Mus musculus with 8 samples.

Results

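The response of macrophages to a short, late exposure to IL-10 was measured by setting cells that received LPS for 195 min and IL-10 during the final 30 min of it (late IL-10) against cells that received LPS alone for 195 min. The 2 groups hold 4 of the 8 libraries of the series, 2 each. Every gene of the deposited table was compared, 11415 genes by mature mRNA and 11131 by pre-mRNA, the unspliced precursor that is present while a gene is being transcribed. LPS, the outer-membrane glycolipid of Gram-negative bacteria and a ligand of TLR4, was given at 1 ng/mL. The IL-10 dose is stated as 1 ng/mL for another stimulated group, which had IL-10 throughout the 195 min, and is not restated for the late group. All cells, the LPS controls included, were bone marrow-derived macrophages grown in M-CSF from mice of strain 129S6/SvEvTac and genotype IL10-/-RAG2-/-, which lack functional Il10 and Rag2. The labels describe 2 independent macrophage pools, without the number of animals in each.

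IL-10 is the main cytokine that restrains inflammatory output of macrophages. It binds a receptor made of IL-10RA and IL-10RB, whose kinases JAK1 and TYK2 phosphorylate the transcription factor STAT3. STAT3 then activates a set of genes that includes its own gene, the feedback inhibitor Socs3, transcriptional repressors such as Nfil3, Etv3 and Sbno2, and, in macrophages, the receptor subunit gene Il4ra. Because mature mRNA accumulates and decays slowly beside its precursor, a change in transcription within 30 min reaches pre-mRNA before it reaches mRNA, and genes with long-lived mRNA show it least.

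STAT3 binds DNA at palindromes of the form TTCNNNGAA, and the cyclic AMP response element TGACGTCA is a known element of the Dusp1 promoter. The 250 bases upstream of a RefSeq start of 3 genes that rose by pre-mRNA are printed because they hold one of these motifs, which stands in capitals. They are RefSeq sequences of build GRCm38.p6, 5′ to 3′ on the strand of the gene, at chr5:7960222-7960471 (plus strand) for the metalloreductase gene Steap4, chr10:80102703-80102952 (minus strand) for the repressor gene Sbno2 and chr17:26508473-26508722 (minus strand) for the phosphatase gene Dusp1.
Steap4: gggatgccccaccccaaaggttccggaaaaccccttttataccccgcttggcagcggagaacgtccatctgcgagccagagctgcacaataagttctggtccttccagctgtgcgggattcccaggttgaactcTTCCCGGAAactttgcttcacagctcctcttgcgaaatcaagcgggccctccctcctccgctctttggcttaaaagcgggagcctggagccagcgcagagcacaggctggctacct
Sbno2: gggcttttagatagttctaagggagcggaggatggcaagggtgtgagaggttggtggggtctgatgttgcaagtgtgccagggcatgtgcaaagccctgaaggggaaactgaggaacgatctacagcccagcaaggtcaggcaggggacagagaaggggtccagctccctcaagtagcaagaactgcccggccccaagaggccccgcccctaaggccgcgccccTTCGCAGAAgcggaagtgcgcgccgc
Dusp1: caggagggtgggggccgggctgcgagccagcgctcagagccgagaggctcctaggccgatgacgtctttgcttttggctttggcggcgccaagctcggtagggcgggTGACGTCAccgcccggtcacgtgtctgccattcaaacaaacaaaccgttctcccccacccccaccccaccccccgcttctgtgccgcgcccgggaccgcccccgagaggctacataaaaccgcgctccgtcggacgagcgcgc
Both motifs were searched for on both strands, and the match is TTCCCGGAA in Steap4 and TTCGCAGAA in the Sbno2 promoter printed. Another RefSeq promoter of Sbno2, at chr10:80101188-80101437 (minus strand) and not printed, held TTCCCGGAA. Both Sbno2 promoters lie inside the GENCODE span of the gene, 80056992 to 80105571, and so upstream of starts within it. Of the 95 genes with a RefSeq promoter among the 109 that rose by pre-mRNA, 7 (7.37%) held TTCNNNGAA, against 660 (7.35%) of the 8984 genes with a promoter among all genes tested. TGACGTCA stood upstream of 3 (3.16%) of the 95 genes, against 278 (3.09%) of the 8984. The shares of the genes that rose were nearly those of all genes in this window. None of the 7 promoters of genes that fell held either motif. Genes that rose spanned a median of 27208 bases, genes that fell 30257 bases and all genes 24022 bases.

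Late IL-10 libraries held 53172133 and 41663415 mRNA reads and LPS libraries 38369836 and 34389726, over the genes of the table. Pre-mRNA reads came to 31508394 and 18866631 with late IL-10 and to 25801556 and 14946179 with LPS alone. The library of a group with the larger size factor is called A and the other B, separately for each measure, so the letters do not pair libraries between groups or measures. Of 10 macrophage markers listed, 9 were in the table, with 738.9 to 369432 normalized mRNA reads in the late IL-10 libraries and 609.0 to 373309 in the LPS libraries. Their summed pre-mRNA level was 58110 and 46600 with late IL-10, against 90370 and 68720 with LPS alone. Of the 9, 4 lay below in both libraries, beside 14.1% of all genes. At an unadjusted p under 0.05 (limma), 2 were lower, beside 2.63% of all genes. No marker of B cells was in the table of 6 listed. The table also held 8 of 12 neutrophil and granule markers, up to 1832 normalized mRNA reads with late IL-10 and 2089 with LPS alone, and 6 of 10 dendritic cell markers, 3 of 9 T cell, 1 of 6 mast cell and basophil, 5 of 10 stromal and endothelial and 1 of 7 megakaryocyte and erythroid markers. The limma test called 0 of these markers in either measure. The summed pre-mRNA level of the 3 T cell markers (Cd4, Lck and Cd28) was 322.3 and 197.4 with late IL-10, against 61.1 and 52.64 with LPS alone, with Lck at an unadjusted p under 0.05, while their summed mRNA overlapped, at 956.8 and 542.1 against 449.2 and 762. The part of these marker levels in the results was not tested. Il10 itself had 6199 and 1556 normalized mRNA reads with late IL-10, against 524.5 and 3171 with LPS alone. Rag2 had 68.27 and 38.79 with late IL-10, against 43.28 and 60.23 with LPS alone. These reads do not show which part of either gene they covered.

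The 2 libraries of a group stood apart in interferon-stimulated genes. By mRNA all 48 listed genes were higher in library A of late IL-10, by a median of 1.29 on the log2 scale, and all 48 were higher in library B of LPS alone, by a median of 1.35. By pre-mRNA all 48 were higher in library A of both groups, by medians of 0.94 with late IL-10 and 0.97 with LPS alone. Cytokines differed between the mRNA libraries by medians of 1.05 with late IL-10 and 1.15 with LPS alone, and chemokines by 1.00 and 0.83 in the same order, against 0.02 over all genes in each group. This difference between libraries counts as error in every comparison below, and its part in the results was not tested beyond the replicate block and the left-out libraries given in the closing section.

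By pre-mRNA, 109 genes rose with late IL-10 and 7 fell, of 11131 tested, which is 0.979% and 0.0629% (limma, Benjamini-Hochberg adjusted p under 0.05 over all genes, as for every "rose" and "fell" here). At an unadjusted p under 0.05, 554 genes (4.98%) were higher and 293 (2.63%) lower. The 109 genes rose by a median of 2.37 (log2 of normalized reads + 1), and 74 of them rose by 2 or more and 32 by 3 or more. The median of all genes was -0.05. Both late IL-10 libraries lay above both LPS libraries for 1458 genes (13.1%) and below them for 1575 (14.1%), and no called gene overlapped. The p-values rest on the spread between the libraries of a group, estimated over all 4 groups of the series. That includes the untreated and IL-10 throughout groups, which are not compared here. With the late IL-10 and LPS libraries alone, 32 genes rose and 0 fell. The labels describe 2 independent macrophage pools, but the columns do not tie libraries to pools, and this fit has no term for them. How much of the spread is technical was not tested. In bulk RNA, fewer cells that make a transcript and less of it per cell cannot be told apart. The call depends on the libraries: 28 of the 109 genes were called without each of the 8 libraries in turn, 34 genes rose without late IL-10 library A and 29 without late IL-10 library B. Those 28 genes, chosen after their values were seen, were Auh, Bach1, Bzw2, Cd244, Cfp, Cyth4, Dusp1, Elovl6, Fcgr3, Ggta1, Gpr146, Mmp19, Mt1, Mt2, Nfil3, Nsmce1, Olfm1, Rab31, Rab3il1, Rassf2, Rnd1, Sema4c, Sh3gl1, Shb, Slc9a3r1, Sntb2, Steap4 and Ubald2.

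The largest rise was that of Steap4, which encodes a metalloreductase of iron and copper uptake (chromosome 5, 7960457 to 7982213). Steap4 pre-mRNA had 1749 and 1479 normalized reads with late IL-10, against 14.1 and 2.699 with LPS alone, where the LPS values rest on 12 and 2 reads. The change was 7.75 ± 0.75 on the log2 scale (SE, adjusted p = 0.00396). A pair of metallothionein genes, whose small cysteine-rich proteins bind zinc and copper, rose beside it from the same stretch of chromosome 8. Mt1 pre-mRNA had 1951 and 2211 with late IL-10, against 54.05 and 97.17 with LPS alone, and Mt2 pre-mRNA had 1056 and 1402, against 28.2 and 58.03. They rose by 4.82 ± 0.33 (adjusted p = 0.00214) and 4.87 ± 0.45 (adjusted p = 0.00396). The late IL-10 libraries of all 3 genes lay far above the LPS libraries. Timp1, an inhibitor of matrix metalloproteinases, had 1024 and 626.2 with late IL-10, against 43.48 and 8.098 with LPS alone, a rise of 5.32 ± 0.71 (adjusted p = 0.0154). Timp1 lies within Syn1 on the opposite strand, and Syn1 pre-mRNA also rose, by 2.62 ± 0.45. How the counting used the strand is not given in the sources used here, so reads of such pairs may be shared. Other named genes also overlap opposite-strand genes, among them Mt2, Sema4c, Creg2, Acat3 and Mmp19. Sh3gl1 overlaps Mpnd and Gpr146 overlaps 3110082I17Rik in this way, and both partners also rose.

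The other 6 of the 10 largest rises were those of Sema6b, Rnd1, Cd244, Creg2, Rab3il1 and Sema4c. The semaphorin genes Sema6b and Sema4c encode membrane-bound guidance proteins. Sema6b pre-mRNA had 273.7 and 450 with late IL-10, against 2.35 and 20.24 with LPS alone (5.38 ± 0.77, adjusted p = 0.0209). Sema4c pre-mRNA had 2203 and 2104, against 95.18 and 82.33 (4.59 ± 0.26, adjusted p = 0.00196), the smallest adjusted p of the comparison. Both Sema4c libraries of each group agreed closely. Rnd1 had 2336 and 3348, against 43.48 and 118.8 (5.26 ± 0.47, adjusted p = 0.00396). Cd244, a receptor of the SLAM family, had 490.1 and 625, against 27.03 and 8.098 (5.12 ± 0.50, adjusted p = 0.00402). Rab3il1, an exchange factor for Rab GTPases, had 1295 and 2132, against 64.63 and 70.18 (4.61 ± 0.33, adjusted p = 0.00214). Creg2, a secreted glycoprotein gene, had 151 and 335.5, against 4.7 and 9.447 (4.87 ± 0.54, adjusted p = 0.0076). In each of these pairs the first values are of late IL-10 and the second of LPS alone. No library of one group overlapped the other, which was a condition for naming these genes.

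**Figure D1:**
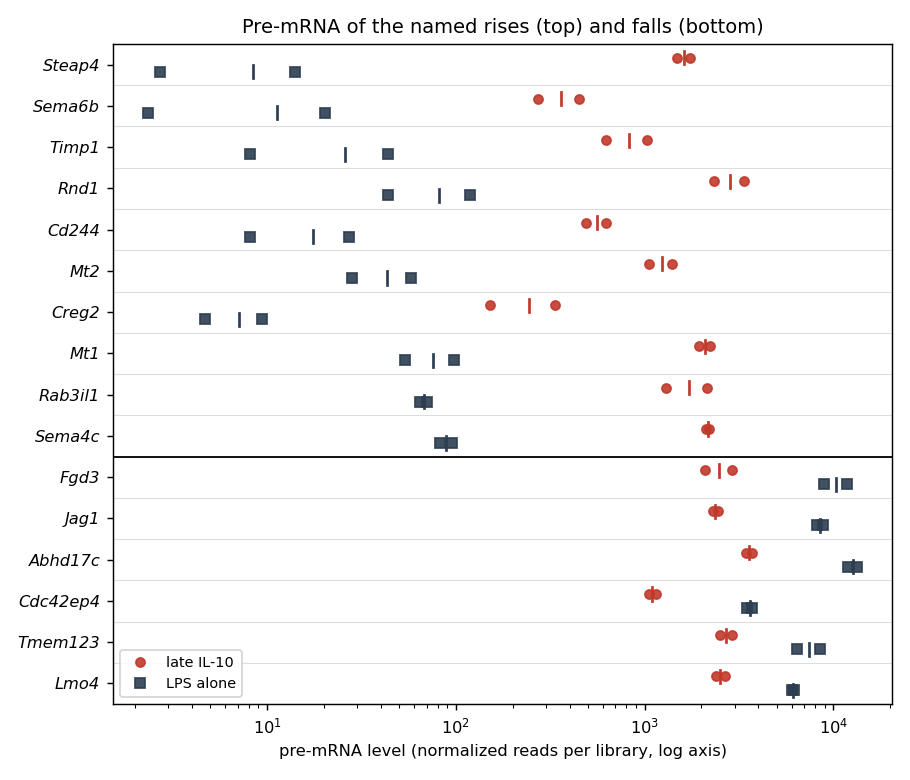
Pre-mRNA level in each library (points, normalized reads on a log axis) with the group mean (tick) for the 10 largest rises and the 6 named falls, late IL-10 in red circles and LPS alone in dark squares. The genes were named on condition that the groups did not overlap. They run from Steap4 at 1749 and 1479 against 14.1 and 2.699 to Lmo4 at 2665 and 2376 against 6037 and 6191.

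Of 31 genes of the IL-10 and STAT3 response list tested by pre-mRNA, 9 rose (Dusp1, Nfil3, Etv3, Il4ra, Bcl3, Batf, Stat3, Sbno2 and Il21r) and none fell. Over all genes 0.979% rose and 0.0629% fell. At an unadjusted p under 0.05 (limma), 16 were higher and 1 lower, beside 4.98% and 2.63% of all genes. The list median was 1.45, beside -0.05 over all genes. The list was chosen with earlier results of these data known, so these counts are description. Most of the 9 encode transcriptional regulators. Nfil3, a repressor known to silence Il12b, had 9398 and 8748 normalized pre-mRNA reads with late IL-10, against 1076 and 749 with LPS alone, a rise of 3.33 ± 0.31 (adjusted p = 0.00396). Etv3, an ETS-family repressor, had 32143 and 23377, against 4257 and 2366 (3.11 ± 0.41, adjusted p = 0.0143). Bcl3, a nuclear member of the IκB family, had 9466 and 10941, against 1532 and 1862 (2.59 ± 0.29, adjusted p = 0.00791). The late IL-10 libraries of these 3 genes were all above the LPS libraries. Batf, a bZIP factor, rose by 2.48 ± 0.33, and Stat3, which encodes the factor that transmits the IL-10 signal, by 2.12 ± 0.32 (adjusted p = 0.0282), with 21832 and 17248 reads against 5969 and 3339. Sbno2, a co-repressor, rose by 1.82 ± 0.31 (adjusted p = 0.0477), with 33103 and 31024 reads against 10492 and 7830. Stat3 overlaps Stat5a on the opposite strand, and Il4ra and Bcl3 overlap antisense genes.

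Among receptor and feedback genes of the list, Il4ra, Il21r and Dusp1 were called and Il10ra, Socs3, Zfp36 and Il1rn were not. No test compared these genes with each other, and the uncalled Il1rn and Zfp36 had larger estimates than the called Il21r. For Socs3, Zfp36 and Il1rn both late IL-10 libraries lay above both LPS libraries by pre-mRNA, as for 13.1% of all genes. Il4ra, the signalling subunit of the IL-4 and IL-13 receptors, had 39660 and 33596 pre-mRNA reads with late IL-10, against 5272 and 4083 with LPS alone (2.98 ± 0.32, adjusted p = 0.00645). Il21r, the IL-21 receptor, rose by 1.45 ± 0.25 (adjusted p = 0.0477). Il10ra, the ligand-binding subunit of the IL-10 receptor, overlapped between groups, with 5896 and 4647 against 6463 and 5601. Dusp1, a phosphatase that switches off the MAP kinases p38 and JNK, had 4455 and 4255 with late IL-10, against 165.7 and 265.9 with LPS alone, and rose by 4.37 ± 0.41 (adjusted p = 0.00396). Dusp1 (chromosome 17, 26505590 to 26562128 in the annotation) overlaps Ergic1 on the opposite strand, whose pre-mRNA also rose, by 2.47 ± 0.31. The overlap rests on this GENCODE span. The RefSeq promoter printed above, at 26508473 to 26508722, lies inside it and does not reach Ergic1, which begins at 26561489. Socs3, the feedback inhibitor of the receptor, had 2992 and 4758, against 1410 and 2259, a change of 1.08 ± 0.52 that did not pass the threshold (adjusted p = 0.791). Zfp36, which encodes the mRNA-destabilizing protein tristetraprolin, changed by 1.58 ± 0.37 (adjusted p = 0.143), and Il1rn, the antagonist of the IL-1 receptor, by 2.297 ± 0.5491 (adjusted p = 0.149). Hp, the haemoglobin-binding acute-phase gene haptoglobin, singled out after its values were seen, had 65.34 and 370.3, against 5.875 and 6.748 (4.43 ± 0.79, adjusted p = 0.0531).

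**Figure D2:**
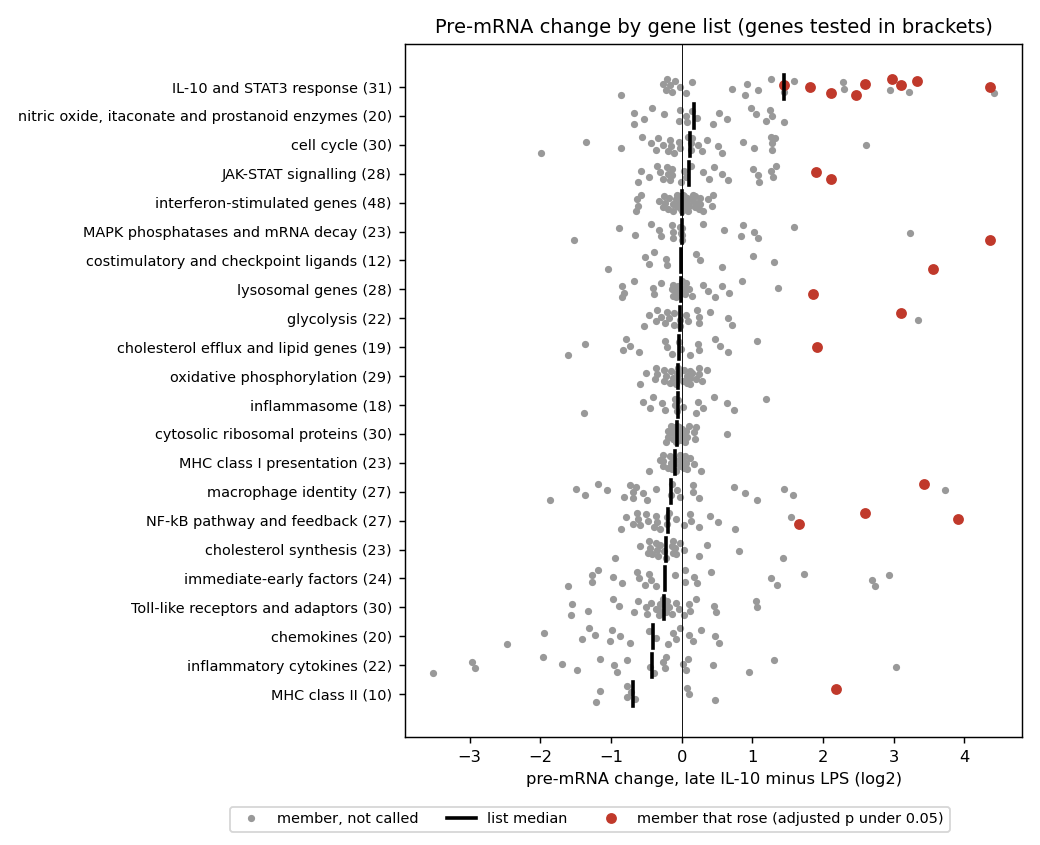
Pre-mRNA change of every tested member of 22 gene lists (log2, late IL-10 minus LPS), with members that rose in red and the list median as a black bar, lists ordered by median. The IL-10 and STAT3 response list has the highest median, 1.45, and 9 red points, while interferon-stimulated genes centre on 0.01. The lists were chosen with earlier results of these data known, so this order is description.

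Single members of other lists rose by pre-mRNA, beside 0.979% of all genes tested. The rise of 1 member is not a result about its list. In the NF-κB pathway and feedback list 3 of 27 rose: Tnip3 and Tnip2, which encode ubiquitin-binding inhibitors of NF-κB signalling, and Bcl3. Tnip3 had 239710 and 188754 normalized pre-mRNA reads with late IL-10, against 17392 and 11364 with LPS alone (3.92 ± 0.50, adjusted p = 0.0131). Tnip2 rose by 1.67 ± 0.22 (adjusted p = 0.0143), and the list median was -0.20. In the JAK-STAT list 2 of 28 rose, Stat3 and the cytokine receptor kinase gene Jak3 (1.90 ± 0.22, adjusted p = 0.00818), with a median of 0.10. 1 member rose in each of 7 lists: Dusp1 of 23 MAPK phosphatases and mRNA decay genes, the T cell costimulator Slamf1 of 12 costimulatory and checkpoint ligands (3.56 ± 0.49), the glycolysis regulator Pfkfb3 of 22 glycolysis genes (3.11 ± 0.46), the lysosomal protease Lgmn of 28 lysosomal genes (1.86 ± 0.19), the Fc receptor Fcgr3 of 27 macrophage identity genes (3.43 ± 0.31), the nuclear receptor Ppard of 19 cholesterol efflux and lipid genes (1.92 ± 0.33) and the ubiquitin ligase March1, which removes MHC class II from the cell surface, of 10 MHC class II genes (2.19 ± 0.38). The other 9 MHC class II genes did not pass the threshold, and the list median was -0.69. No list had a member that fell. None of 24 immediate-early factors passed the threshold by pre-mRNA. Their median was -0.23, and 5 had an unadjusted p under 0.05 (limma), all higher, beside 4.98% of all genes. Fosl2, a FOS-related factor, came nearest, with 25003 and 24780 against 2573 and 5745 (2.69 ± 0.48, adjusted p = 0.0539).

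The 7 genes that fell were Fgd3, Jag1, Abhd17c, Cdc42ep4, 1190002N15Rik, Tmem123 and Lmo4, by 1.28 to 2.06 on the log2 scale. Jag1, a ligand of the Notch receptors, had 2307 and 2438 normalized pre-mRNA reads with late IL-10, against 8829 and 8179 with LPS alone, and fell by 1.84 (SE 0.20, adjusted p = 0.00681). Fgd3 had 2081 and 2895, against 8883 and 11860, and fell by 2.06 (SE 0.30, adjusted p = 0.0234). Cdc42ep4 had 1149 and 1051, against 3703 and 3486, and fell by 1.71 (SE 0.22, adjusted p = 0.0131). Abhd17c, an enzyme that removes palmitate from proteins, had 3442 and 3710, against 13332 and 12001, and fell by 1.82 (SE 0.23, adjusted p = 0.0124). No library of one group overlapped the other for these genes, which was a condition for naming them. Tmem123, a membrane protein gene, fell by 1.44 (SE 0.24) and the transcriptional adaptor Lmo4 by 1.28 (SE 0.19). None of the 7 falls was called when either late IL-10 library was left out, which leaves 1 library in that group.

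By mature mRNA, limma called 0 genes higher and 0 lower of 11415 (0% each), and limma-voom on the recovered reads also called 0. At an unadjusted p under 0.05, 92 genes (0.806%) were higher and 15 (0.131%) lower. This fit counts the difference between the libraries of a group as error, which can make its p-values too large. The 0 calls therefore do not show that mRNA was unchanged. Both late IL-10 libraries lay above both LPS libraries for 705 genes (6.18%) and below them for 680 (5.96%). The 10 genes with the smallest p, a choice made after the values were seen, were Dusp1, Nfil3, Sema4c, Ppp1r3d, Fam217b, Tnip3, Mt1, Zfp36, Thbd and Steap4, all higher with late IL-10. Dusp1 mRNA had 49732 and 61342 normalized reads with late IL-10, against 3507 and 2230 with LPS alone. Its change of 4.30 ± 0.39 was as large as by pre-mRNA, with an adjusted p of 0.124. Nfil3 mRNA had 9341 and 8423, against 1493 and 2037 (2.35 ± 0.24, adjusted p = 0.131). Sema4c mRNA had 5259 and 3447, against 384.3 and 668.2 (3.07 ± 0.33, adjusted p = 0.131). For these 3 genes the late IL-10 libraries stood clear of the LPS libraries although the test over all genes did not call them. With a replicate block, whose pools were matched from the values so that its p-values may be too low, limma called 6 genes by mRNA, Dusp1, Nfil3, Sema4c, Tnip3, Ier3 and Midn. Zfp36 mRNA had 65658 and 59255, against 23116 and 24541 (1.39 ± 0.20, adjusted p = 0.325), and Tnip3 changed by 2.06 ± 0.28 (adjusted p = 0.299). Thbd, the anticoagulant receptor thrombomodulin, had 322.9 and 364.2, against 56.67 and 40.62 (2.81 ± 0.41), and Ppp1r3d, a glycogen-targeting subunit of protein phosphatase 1, had 578.5 and 813.6, against 129.8 and 119.1 (2.46 ± 0.30). Both are listed at 0 pre-mRNA reads in all libraries of the series. The remaining gene, Fam217b, changed by 1.84 ± 0.24 by mRNA and rose by 4.06 ± 0.42 by pre-mRNA. Socs3 mRNA was already abundant with LPS alone, at 94240 and 87517, and had 181971 and 186534 with late IL-10 (1.02 ± 0.28, adjusted p = 1). In the IL-10 and STAT3 response list 12 of 34 genes were higher by mRNA at an unadjusted p under 0.05, beside 0.806% of all genes. None was lower, and the list median was 0.52.

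The 109 genes that rose by pre-mRNA were set beside their own mRNA. The mRNA change was above 0 for all 109, with a median of 0.55 and a range of 0.01 to 4.30, and for the 7 falls it lay between -0.29 and -0.09. The mRNA changes of the 6 named falls were no larger than about their errors (Fgd3 -0.20 ± 0.38, Abhd17c -0.09 ± 0.21), and those of Fgd3, Jag1, Abhd17c and Tmem123 changed sign with 1 library left out. Among all 11131 genes tested by pre-mRNA, 5324 had an mRNA change above 0. Both late IL-10 mRNA libraries lay above both LPS libraries for 70 of the 109 genes and for 686 of the 11131. The groups' mRNA libraries overlapped for the other 39 genes. At an unadjusted p under 0.05 (limma), 43 of the 109 were higher by mRNA, beside 85 of the 11131. The fit of both measures together, which ignores that both measures share an RNA sample, tested whether the pre-mRNA change differed from the mRNA change. It differed for 15 of 11131 genes, 0.135%, all with the larger change in pre-mRNA, and for 0 with a smaller one.

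**Figure D3:**
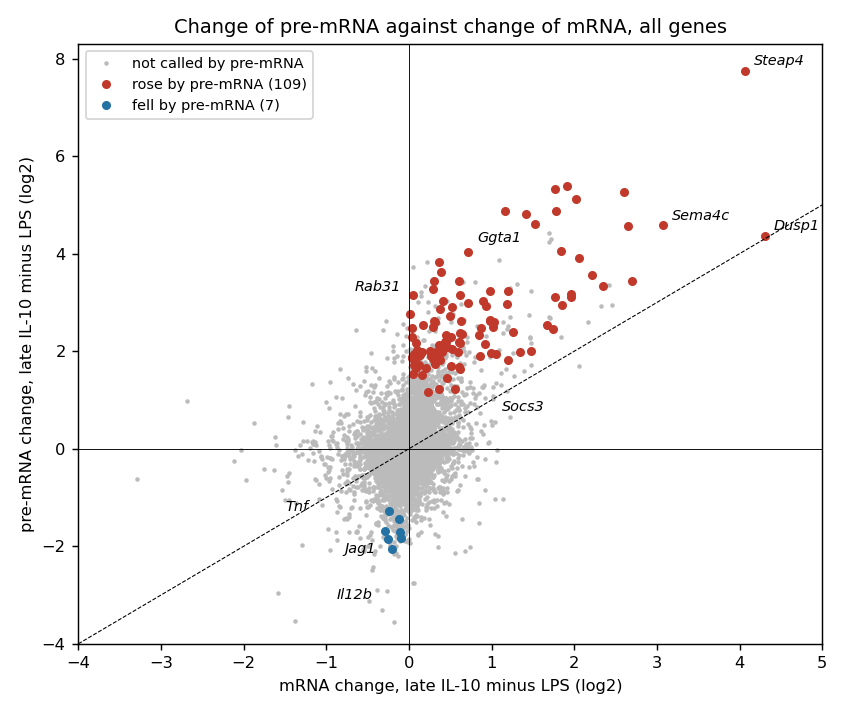
Pre-mRNA change against mRNA change (log2, late IL-10 minus LPS), 1 point per gene, for 11131 genes, with the 109 that rose by pre-mRNA in red and the 7 that fell in blue. The dashed line marks equal changes, and most red points lie above it, while Dusp1 lies on it at 4.30 by mRNA and 4.37 by pre-mRNA.

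The 5 largest of these differences were those of Bzw2, Mt1, Ggta1, Elovl6 and Rab31. Rab31, a GTPase of vesicle transport, had 17292 and 15589 normalized pre-mRNA reads with late IL-10, against 2132 and 1597 with LPS alone. Its mRNA was level, at 4226 and 4443 with late IL-10 and 4230 and 4169 with LPS alone. The pre-mRNA change exceeded the mRNA change by 3.11 ± 0.33 (adjusted p = 0.00333). Ggta1, the transferase that makes the alpha-gal sugar of non-primate mammals, had 20277 and 16464 by pre-mRNA, against 1145 and 1070, and 2313 and 2040 by mRNA, against 1224 and 1436. Its difference was 3.33 ± 0.29 (adjusted p = 0.0011). Elovl6, an enzyme that elongates fatty acids, had 850.3 and 790 by pre-mRNA, against 71.68 and 78.28, while its mRNA differed by less than its error, at 37.83 and 42.57 with late IL-10 and 34 and 30.82 with LPS alone. Its difference was 3.13 ± 0.48 (adjusted p = 0.0312). Bzw2, a regulator of translation initiation, differed by 3.47 ± 0.41 (adjusted p = 0.00609) and overlaps Ankmy2 on the opposite strand, and Mt1 differed by 3.41 ± 0.38 (adjusted p = 0.00386). The other 10 genes were the complement regulator Cfp (2.99), Fcgr3 (2.83), the scaffold gene Slc9a3r1 (2.50), Ergic1 (2.43), Rassf2 (2.38), the ganglioside activator Gm2a (2.25), Nsmce1 (2.21), Acat3 (1.80), the sialyltransferase St3gal4 (1.75) and the endocytosis gene Sh3gl1 (1.699). Of these, Ergic1, Acat3, St3gal4 and Sh3gl1 overlap genes on the opposite strand, so their reads may be shared. For Dusp1 the difference was 0.06 ± 0.61 and for Socs3 0.06 ± 0.65, with errors too large to show that the measures changed alike.

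Inflammatory genes were measured because IL-10 is known to lower them. None of 22 cytokines or 20 chemokines passed the threshold by pre-mRNA, and their medians were -0.42 and -0.41. Both late IL-10 libraries lay below both LPS libraries for 8 cytokines and 8 chemokines, beside 14.1% of all genes. They lay above for 3 cytokines and 1 chemokine, beside 13.1%. At an unadjusted p under 0.05 (limma), 2 cytokines were higher and 4 lower, and 0 chemokines were higher and 7 lower. Over all genes 4.98% were higher and 2.63% lower. By mRNA, 1 of 23 cytokines was higher and 2 lower at that p, and of 21 chemokines 0 were higher and 1 lower. The mRNA shares over all genes were 0.806% higher and 0.131% lower. Tnf, the gene of tumour necrosis factor (chromosome 17, 35199381 to 35202007), had 109950 and 98297 normalized mRNA reads with late IL-10, against 216667 and 215025 with LPS alone. Its pre-mRNA had 2683 and 3581, against 6220 and 7677. All late IL-10 libraries lay below the LPS libraries in both measures. The changes were -1.05 ± 0.19 by mRNA (adjusted p = 0.645) and -1.16 ± 0.30 by pre-mRNA (adjusted p = 0.194), so neither passed over all genes. Il12b, which encodes the p40 subunit of IL-12 and IL-23, had 2072 and 1188 by pre-mRNA, against 14002 and 10184 (-2.93 ± 0.72, adjusted p = 0.162), and its mRNA overlapped, at 60456 and 21537 against 28761 and 65667 (-0.27 ± 0.56). Limma-voom called the Il12b pre-mRNA lower, with an adjusted p of 0.0175.

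Other members showed the same order of libraries or overlapped. Pre-mRNA of the chemokine genes Ccl17 and Ccl22, ligands of the receptor CCR4, had 6.181 and 4.489 and 100.7 and 74.06 with late IL-10, against 38.78 and 29.69 and 371.3 and 305 with LPS alone (-2.48 ± 0.58 and -1.95 ± 0.49, adjusted p = 0.134 and 0.178). The neutrophil attractants Cxcl1 and Cxcl2 had mRNA changes of -0.77 ± 0.26 and -0.70 ± 0.35, and the IL-23 subunit gene Il23a of -1.29 ± 0.49, none of them called. The growth factor gene Csf2 and the IL-6 family gene Lif, singled out after their values were seen, had pre-mRNA changes of -2.97 ± 0.92 and -3.52 ± 1.03 (adjusted p = 0.322 and 0.276). The libraries of Csf2 and Lif differed widely within a group. Il6 mRNA had 15630 and 3729 with late IL-10, against 6006 and 17665 with LPS alone, and Il1b mRNA had 350055 and 154047, against 186913 and 333586. The groups overlapped for both cytokines, as they did for Cxcl10 (209539 and 93638 against 83311 and 207592) and Ifit1 (168755 and 43608 against 42529 and 156094), which are induced by interferon. In the interferon-stimulated list 0 of 48 genes passed limma's threshold in either measure, 0 reached an unadjusted p under 0.05, limma-voom made no call in mRNA, and the medians were 0.05 by mRNA and 0.01 by pre-mRNA. Egr1 and Fos, early response genes, overlapped too, at 515.7 and 1883 against 1533 and 553.3 and at 525 and 843 against 603.8 and 330.6.

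**Figure D4:**
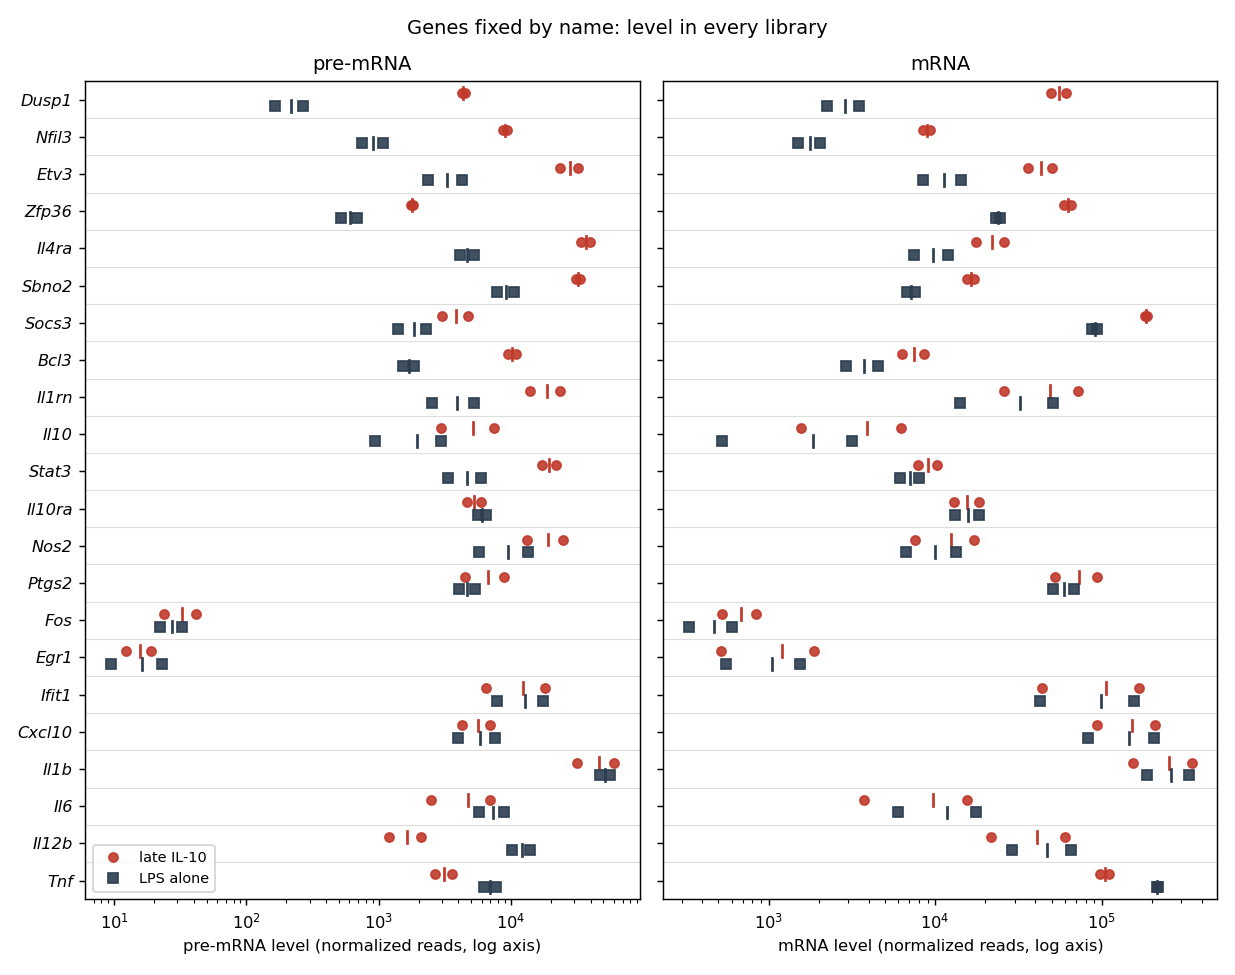
Level of 22 genes fixed by name in each library (points, normalized reads on a log axis) with group means (ticks), pre-mRNA on the left and mRNA on the right, late IL-10 in red and LPS alone in dark squares. Dusp1, Nfil3 and Etv3 lie to the right with late IL-10 and Tnf to the left in both panels, and Ifit1, Cxcl10, Il1b, Fos and Egr1 overlap in both.

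In several other lists no gene passed by pre-mRNA. Over all genes 4.98% were higher and 2.63% lower at an unadjusted p under 0.05 (limma). Both late IL-10 libraries lay below both LPS libraries for 14.1% of all genes. None of 30 cytosolic ribosomal protein genes, 29 oxidative phosphorylation genes or 23 MHC class I presentation genes passed limma's threshold or an unadjusted p of 0.05, with medians of -0.06, -0.05 and -0.09. None passed among 23 cholesterol synthesis genes (median -0.22, 1 higher and 1 lower at an unadjusted p under 0.05, and 11 with both late IL-10 libraries below both LPS libraries), 30 Toll-like receptor and adaptor genes (median -0.25, 2 higher and 4 lower, and 10 with both libraries below), 30 cell cycle genes (median 0.12, 3 higher and 1 lower), 18 inflammasome genes (median -0.05, 0 higher and 1 lower) or 20 genes of nitric oxide, itaconate and prostanoid enzymes (median 0.18, 2 higher and 0 lower). Nos2, the inducible nitric oxide synthase, had 24576 and 13335 pre-mRNA reads with late IL-10, against 13383 and 5721 with LPS alone, and Ptgs2, the inducible cyclooxygenase, had 8785 and 4513, against 5302 and 4022. The libraries of both genes overlapped between groups.

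The group with IL-10 throughout was set beside the late group. Both groups had 195 min of LPS, with IL-10 from its start or only in its final 30 min. Length of exposure therefore cannot be told apart from the state of the cells when IL-10 was added. A difference in dose cannot be told apart either, since the late dose is not restated. The groups are not a time course. With IL-10 throughout, 84 genes (0.755%) were higher and 245 (2.2%) lower by pre-mRNA than with late IL-10, and by mRNA 59 (0.517%) were higher and 65 (0.569%) lower. The balance depends on the scaling: with scaling to total reads 144 were higher and 208 lower by pre-mRNA and 89 higher and 69 lower by mRNA, and with the upper quartile 108 and 277 by pre-mRNA and 76 and 72 by mRNA. Of the 109 genes that rose with late IL-10, 23 were lower and 2 (Acat3 and Pltp) higher with IL-10 throughout. Of the 7 that fell, 2 (Jag1 and Cdc42ep4) were higher. Both counts share the late IL-10 libraries with the comparison that chose the genes, which favours this direction, so they are given as description. Nfil3 pre-mRNA stood at 1076 and 749 at 0 min of IL-10, at 9398 and 8748 at 30 min and at 1622 and 1394 at 195 min. Dusp1 mRNA stood at 3507 and 2230, at 49732 and 61342, and at 22999 and 17757 in the same order of groups. Both were highest in the late group. Limma called the difference between the late group and IL-10 throughout for Nfil3 pre-mRNA (adjusted p = 0.0206). It did not call that of Dusp1 mRNA (adjusted p = 0.155). Il4ra mRNA stood at 7485 and 11877, at 25970 and 17701, and at 152757 and 127113, and Ggta1 mRNA at 1224 and 1436, at 2313 and 2040, and at 32278 and 25286. These mRNAs were highest with IL-10 throughout, while their pre-mRNA with late IL-10 was near its level with IL-10 throughout. Il4ra pre-mRNA had 39660 and 33596 at 30 min and 32618 and 24220 at 195 min, and Ggta1 pre-mRNA had 20277 and 16464 at 30 min and 25048 and 24168 at 195 min. Il12b mRNA stood at 28761 and 65667 at 0 min, at 60456 and 21537 at 30 min and at 269.9 and 226.3 at 195 min.

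**Figure D5:**
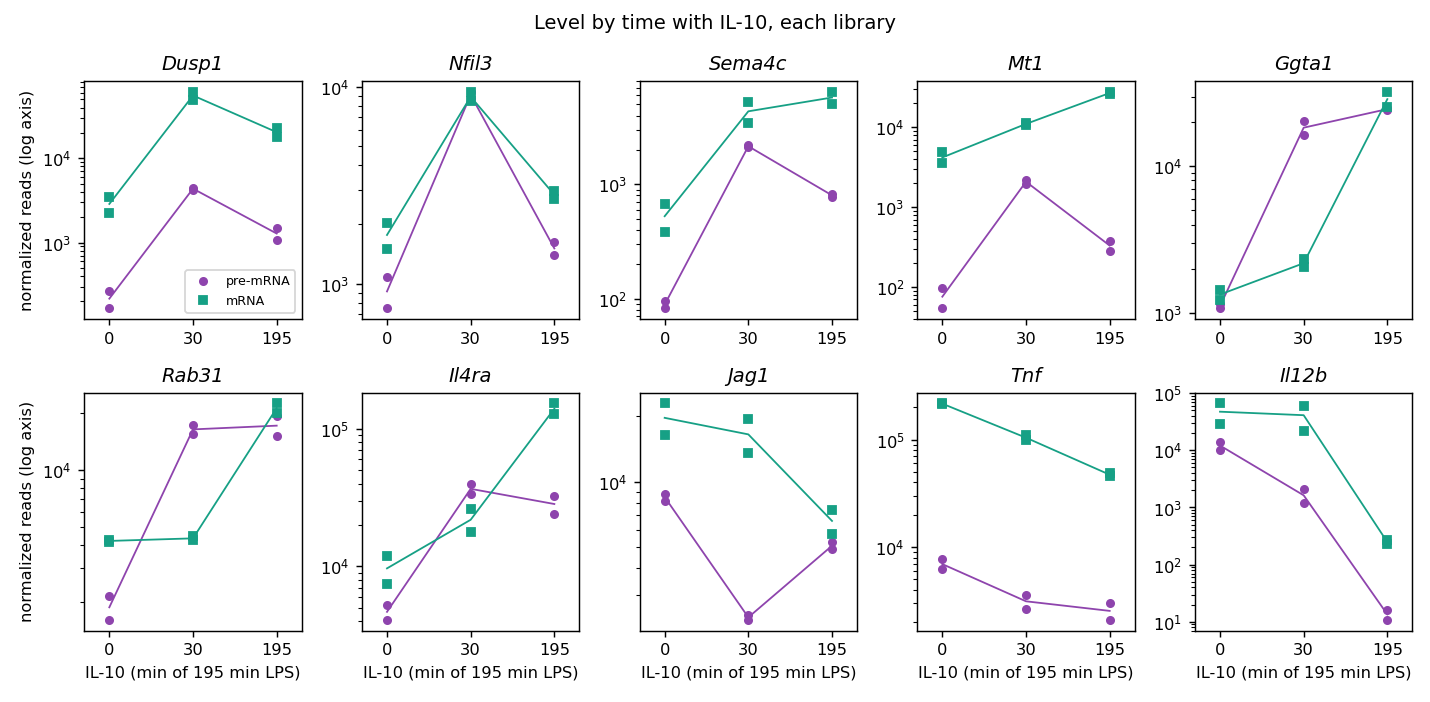
Levels of 10 genes in each library (points, normalized reads on log axes that differ between panels) at 0, 30 and 195 min of IL-10 within 195 min of LPS, pre-mRNA as purple circles and mRNA as green squares, lines joining group means. Nfil3 pre-mRNA is highest at 30 min, with 9398 and 8748, and Il4ra mRNA at 195 min, with 152757 and 127113. The groups also differ in when IL-10 was added to the LPS, so the lines are not a time course.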

How the data were processed

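RNA-seq of total RNA, depleted of ribosomal RNA and made into directional libraries, was measured in 8 libraries of 4 groups. The table deposited by the authors holds, per gene and group, the mean over 2 libraries of reads divided by a size factor, a normalized signal, in 8 columns for mRNA and pre-mRNA. The submitters' processing notes name Trim Galore, DESeq and mm10 (GRCm38). Which aligner was used, how reads were counted, whether strand was used and how pre-mRNA reads were assigned is not stated in the labels. Both libraries' whole reads were recovered from the means: 100% of values came out whole within a relative tolerance of 2e-14. Recovery was tested on simulated data.

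Genes with a mean of at least 1 normalized read were tested with limma 3.58.1 (R 4.3.3) with a mean-variance trend on log2(normalized reads + 1), all 8 libraries per measure in one fit, with Benjamini-Hochberg adjustment over all genes. Fold changes on this scale understate changes of low genes. Limma-voom on the recovered reads called 107 genes higher and 12 lower by pre-mRNA and 0 by mRNA. Named were the 10 largest rises and falls past the threshold with non-overlapping libraries and a mean of at least 5 in either group, the 2 smallest p-values of each list, 22 genes fixed by name and the 5 largest called differences between measures, without predicted genes and clones. Members and lists (22 pathway, 8 marker) were chosen with earlier results of these data known. Alternatives covered scaling, filter, pseudocount, the samples fitted, voom, a replicate block and each library left out. Positions are from GENCODE M21 and promoters from RefSeq GRCm38.p6. Other tools were Python 3.11.15, pandas 2.3.3, numpy 2.4.6 and matplotlib 3.10.9. The late IL-10 and LPS libraries held 14946179 to 53172133 reads per measure, and this depth limits low genes most.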

Additional observations from a re-analysis of the deposited data

Results flagged for a closer look

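For 27 values of named genes the level with IL-10 throughout differed from that with late IL-10 by limma's test of the difference (adjusted p under 0.05), given here as IL-10 throughout minus late IL-10 on the log2 scale. All of them share the late IL-10 libraries with the comparison reported above.

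By mRNA, Ggta1 (3.717), Elovl6 (3.21), March1 (3.092), Rab3il1 (2.976), Il4ra (2.7), Rab31 (2.296), Bzw2 (1.78), Stat3 (1.373) and Mt1 (1.285) were higher with IL-10 throughout. By mRNA, Il12b (-7.184), Il23a (-3.937), Cxcl1 (-2.748), Cxcl2 (-2.316) and Nfil3 (-1.653) were lower with it.

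By pre-mRNA, Acat3 (1.457), Cdc42ep4 (1.322), Pltp (1.302) and Jag1 (1.095) were higher with IL-10 throughout. By pre-mRNA, Il12b (-6.784), Csf2 (-4.515), Ccl22 (-4.253), Mt1 (-2.662), Nfil3 (-2.592), Bach1 (-2.533), Bzw2 (-2.221), Sema4c (-1.425) and Sh3gl1 (-1.342) were lower with it. Mt1 and Bzw2 were higher by mRNA and lower by pre-mRNA, and Nfil3 and Il12b were lower by both.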

How the results depend on the processing

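By mRNA, 0 genes were called higher with late IL-10, against 3 with scaling to total reads (Dusp1, Nfil3 and Sema4c) and 6 with a replicate block, and leaving out any library gave 0. By pre-mRNA, the 109 genes higher became 59 without a filter on low values, 32 with the late IL-10 and LPS libraries alone and 29 to 82 with a library left out. The 7 genes lower became 11 with upper-quartile scaling, 12 with limma-voom, 0 with the late IL-10 and LPS libraries alone and 0 to 5 with a library left out. A replicate block gave 334 higher and 144 lower by pre-mRNA. Its pools were matched from the values (correlation of library differences between late IL-10 and LPS of -0.844 by mRNA and 0.68 by pre-mRNA), and the columns carry no replicate number, which can make its p-values too small. The 15 differences between measures became 9 with total-read scaling and 4 to 10 with a library left out. IL-10 throughout against late IL-10 gave 124 calls by mRNA, 1 to 105 with a library left out, and 329 by pre-mRNA, 26 without a filter and 1 to 599 with a library left out. Total-read scaling moved the median of all genes in that comparison to 0.262 by mRNA and 0.435 by pre-mRNA, and the upper quartile to 0.187 by pre-mRNA. Uncalled mRNA changes that reversed with a library left out ranged from -0.59 to 0.18 for Fgd3, -0.53 to 0.00908 for Jag1, -0.27 to 0.079 for Abhd17c, -0.243 to 0.004843 for Tmem123, -1.01 to 0.48 for Il12b, -0.23 to 1.62 for Il1rn, -0.38 to 0.45 for Lgmn and -0.50 to 0.76 for Ppard. The cause of these changes was not tested, except that fewer samples enter the fits with libraries left out. A library left out of a group leaves 1, assumed to vary like the others.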
